A study of Arabidopsis thaliana with 18 samples.

Results

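The transcription factors described here direct seed maturation in Arabidopsis, and their messages were measured in dry abci20 mutant and Col-0 seeds. They are ABI3 (AT3G24650_at), FUS3 (AT3G26790_at), LEC1 (AT1G21970_at), LEC2 (AT1G28300_at), ABI4 (AT2G40220_at), ABI5 (AT2G36270_at), EEL (AT2G41070_at), bZIP53 (AT3G62420_at), bZIP67 (AT3G44460_at) and WRI1 (AT3G54320_at). They were chosen by name for their known roles, with earlier results of these data known. They make up 10 of the 27827 probe sets (1 per locus) on the arrays. All 10 were tested, with no filter on low signals.

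The tested seeds carried the abci20 mutation in the Col-0 background, and the seeds they were set against were Col-0. Both were dry and newly harvested, and plants of both genotypes grew together in randomized complete blocks, where a replicate was a pool of plants. From each genotype, polysomal RNA (carrying several ribosomes), monosomal RNA (carrying 1 ribosome) and total RNA were put on 3 arrays each, which gave 6 groups and 18 arrays. The nature of the abci20 allele and the number of independent mutant lines are not given in the sources used here.

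Seed maturation is the phase in which the embryo fills with storage protein and oil and acquires tolerance to drying. LEC1, a CCAAT-binding NF-YB subunit, and the B3-domain proteins LEC2, FUS3 and ABI3 head the programme, and the B3 proteins bind RY elements in the promoters of storage protein genes. Basic leucine zipper (bZIP) proteins bind neighbouring abscisic acid response elements, the AP2-domain protein ABI4 links abscisic acid and sugar signals, and WRI1, also with AP2 domains, turns on glycolytic and fatty acid synthesis genes. Dry seeds keep a pool of stored messages from this phase, part of which is bound to ribosomes.

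Values are log2 signals from the deposited table, so a difference of 1 is a doubling, and each comparison was tested with limma across all probe sets, with Benjamini-Hochberg adjusted p below 0.05 as the threshold. ABCI20 itself was lower in abci20, with signals of 1.1 to 2.4 in the mutant arrays and 3.80 to 5.09 in Col-0. Its differences were -2.32, -2.40 and -2.31 in polysomal, monosomal and total RNA (adjusted p at most 0.00406). The mature embryo markers lay in the top of every array, with all 8 between the percentiles 98.8 and 100 of signals. One array stood apart: abci20 total replicate 1 correlated with replicates 2 and 3 at 0.893 and 0.915, while those 2 correlated at 0.959. Calls of the factors that depended on this array are given with and without it, as are the differences in total RNA that it moved most. In whole seeds, fewer cells of a type and less RNA per cell cannot be told apart.

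**Figure D1:**
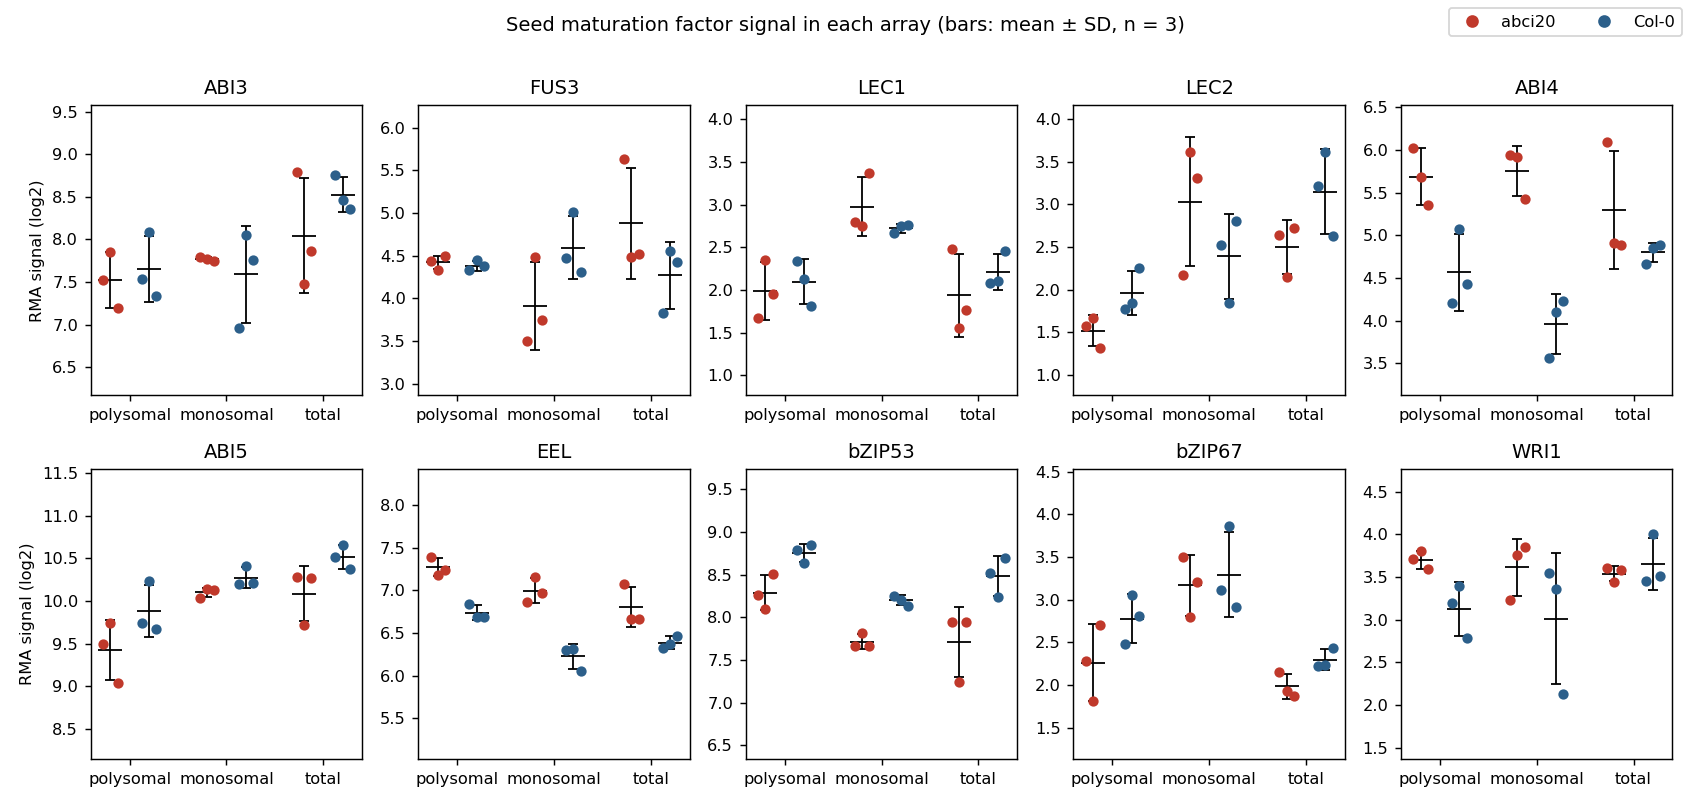
Deposited log2 signal of each factor (y axis, a window of the same width in every panel) by RNA fraction (x axis), with abci20 in red left of Col-0 in blue. Points are arrays and bars are the mean ± SD (n = 3). For ABI4 in monosomal RNA, abci20 arrays lie at 5.42 to 5.94 and Col-0 arrays at 3.56 to 4.23.

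ABI5, ABI3 and bZIP53 gave strong signals in dry seeds, and LEC1, LEC2, bZIP67 and WRI1 gave weak ones. ABI5 lay between the percentiles 97.6 and 99.5 of its array, bZIP53 between 91.7 and 97.1, ABI3 between 88.1 and 97.4, and EEL between 81.0 and 89.8. ABI4 ran from 54.6 to 79.9 and FUS3 from 53.6 to 75.2. The highest percentile that LEC1 reached was 51.8, that of LEC2 55.0, that of bZIP67 58.1 and that of WRI1 58.4. These percentiles place a probe set against the low end of its array and do not rank one message against another, since probe sets bind with different strength. In no group did the mean of LEC1, LEC2, bZIP67 or WRI1 exceed a log2 signal of 3.93, the median over all probe sets of the highest group mean, so their differences were measured near the low end.

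ABI4 was the factor with the largest difference between the genotypes, and it was higher in abci20 in monosomal RNA. By limma, 0 of 10 factors passed in total RNA, where 3.35% of all probe sets did, and 0 of 10 in polysomal RNA, where 0.442% did. In monosomal RNA 2 of 10 passed, ABI4 and EEL, beside 1.83% of all probe sets. At an unadjusted p below 0.05 the counts were 2, 3 and 4 factors in total, polysomal and monosomal RNA. Over all probe sets they were 4857, 2211 and 4139, or 17.5%, 7.95% and 14.9%. The median difference over the 10 factors was -0.30, -0.12 and 0.22 in those fractions, beside 0.01, -0.01 and -0.03 over all probe sets.

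**Figure D2:**
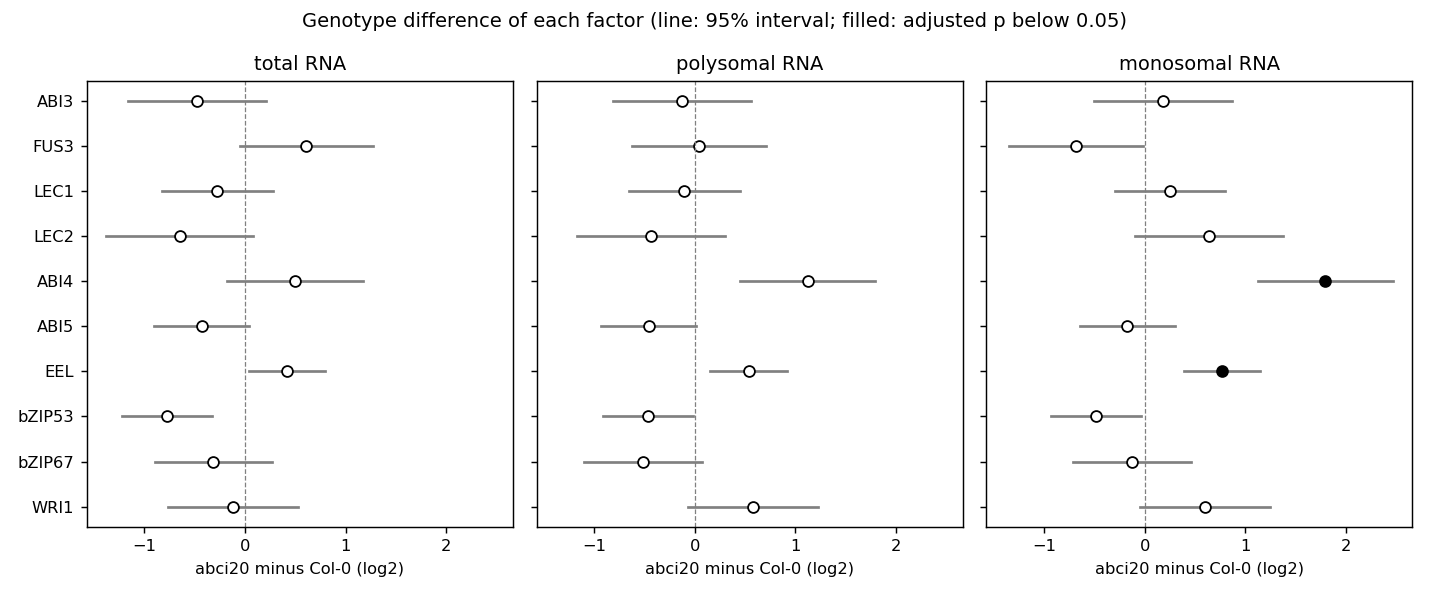
Difference between abci20 and Col-0 (x axis, log2) for each factor in total, polysomal and monosomal RNA. Lines are 95% intervals and filled points passed the threshold: ABI4 at 1.80 and EEL at 0.77, both in monosomal RNA.

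ABI4 is needed for full abscisic acid and sugar responses of germinating seeds. Its monosomal signal was 5.94, 5.91 and 5.42 in abci20, against 3.56, 4.10 and 4.23 in Col-0. The groups were more than 1 log2 unit apart at their nearest arrays. The difference was 1.80 (SE 0.319), a 3.48-fold higher signal in abci20 (adjusted p = 0.0089). It passed in 11 of 14 alternatives and missed in 3, without abci20 monosomal replicate 2 (1.72, adjusted p = 0.0581), without Col-0 monosomal replicate 1 (1.60, adjusted p = 0.0543) and with only these 6 arrays fitted (adjusted p = 0.0583).

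In polysomal RNA, ABI4 was at 6.03, 5.69 and 5.35 in abci20, against 4.21, 5.07 and 4.43 in Col-0. The groups again did not overlap, but the difference of 1.12 (SE 0.319) missed the threshold (adjusted p = 0.183) and passed only with array weights (1.35, adjusted p = 0.000474). In total RNA it was at 6.09, 4.91 and 4.89 in abci20, against 4.67, 4.85 and 4.88 in Col-0. Here 1 abci20 array, the one that stood apart, lay well above the rest, and the other 2 lay just above the highest Col-0 array. The difference of 0.50 (SE 0.319) did not pass (adjusted p = 0.465), and without that array it was 0.10 (adjusted p = 0.869).

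No difference between the genotypes in how ABI4 was spread over the fractions passed the threshold. In abci20 its monosomal mean of 5.76 ± 0.293 stood beside a total mean of 5.30 ± 0.689, and in Col-0 its monosomal mean of 3.96 ± 0.357 stood beside a total mean of 4.80 ± 0.115 (SD, n = 3 each). The monosomal minus total difference was 0.46 in abci20 (adjusted p = 0.351) and -0.84 in Col-0 (adjusted p = 0.122). Without abci20 total replicate 1 both passed, at 0.86 in abci20 (adjusted p = 0.0343) and -0.84 in Col-0 (adjusted p = 0.0433), and so did the polysomal minus total difference of abci20, at 0.79 (adjusted p = 0.0434) beside 0.39 with that array (adjusted p = 0.402). The genotypes' difference in this contrast was 1.3 (SE 0.451, unadjusted p = 0.0103), with an adjusted p of 0.495, and without that array it was 1.7 (adjusted p = 0.0507). In polysomal minus total RNA the genotypes' difference was 0.62 with the array and 1.02 without it (adjusted p = 0.999 and 0.292).

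EEL, a bZIP protein that competes with ABI5 for the same promoter sites and holds down the Em1 gene, was the other factor that was higher in abci20 monosomal RNA. Its signal was 6.87, 7.16 and 6.97 in abci20, against 6.31, 6.31 and 6.06 in Col-0. The difference of 0.77 (SE 0.180), 1.71-fold, passed narrowly (adjusted p = 0.0357). It missed when any 1 of the 6 arrays compared was left out (adjusted p from 0.0538 to 0.159), when arrays were centred on their medians (0.79, adjusted p = 0.0981) and with only these arrays fitted (adjusted p = 0.193).

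EEL was above Col-0 without overlap in the other fractions too. In polysomal RNA it was at 7.39, 7.18 and 7.25 in abci20, against 6.84, 6.69 and 6.69 in Col-0, a difference of 0.53 (SE 0.180, adjusted p = 0.313). In total RNA it was at 7.08, 6.67 and 6.67 in abci20, against 6.33, 6.37 and 6.47 in Col-0, a difference of 0.42 (SE 0.180, adjusted p = 0.232; 0.28 without abci20 total replicate 1). Neither passed, and the polysomal difference passed only with array weights (0.60, adjusted p = 0.00361), where 9.55% of all probe sets did. Across the 18 arrays, ABI4 and EEL correlated at 0.80, the highest of the 45 pairs of factors, and ABI5 and EEL at -0.66, the lowest. These arrays share their genotype and fraction groups, so the correlations describe the table and carry no test.

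Marker lists of other tissues also differed between the genotypes, in directions that changed with the list and the fraction. The mean of 5 seed coat markers was 2.86 in abci20 and 2.63 in Col-0 in monosomal RNA, with arrays from 2.70 to 3.09 in abci20 and from 2.22 to 2.89 in Col-0. In polysomal RNA the arrays did not overlap, at 2.81 to 2.87 in abci20 and 2.47 to 2.60 in Col-0, nor in total RNA, at 2.85 to 3.01 in abci20 and 2.46 to 2.72 in Col-0. In monosomal RNA, of the 5, BAN, TT4 and TT10 were higher in abci20 and TT12 and MUM4 were lower. TT4 (chalcone synthase) had the widest gap, with means of 4.57 in abci20 and 2.82 in Col-0, whereas BAN and TT10 had group means of 2.36 or less. In polysomal RNA, TT4 (means of 5.15 in abci20 and 3.09 in Col-0) and TT10 were higher in abci20, and BAN, TT12 and MUM4 were lower. In total RNA only MUM4 was lower. The mean of 4 endosperm markers was 5.71 in abci20 and 5.44 in Col-0 in monosomal RNA, with arrays from 5.44 to 5.90 and from 5.25 to 5.58, and 3 of the 4 were higher in abci20 (EPR1, MAN7 and EXPA2). In polysomal RNA it was 5.60 in both genotypes, and in total RNA 5.76 in abci20 and 5.96 in Col-0. The mean of the leaf markers was 3.80 in abci20 and 3.74 in Col-0 in monosomal RNA, and 3.64 and 3.54 in polysomal RNA. In total RNA the leaf arrays did not overlap, at 3.87 to 3.92 in abci20 and 3.35 to 3.77 in Col-0. There LHCB1.1 (means of 2.93 in abci20 and 2.29 in Col-0), LHCB1.3 (1.94 and 1.52) and RCA (4.04 and 3.72) were higher in abci20. RBCS1A, the leaf marker with the strongest signal, was lower (6.67 and 6.81). Pollen and flower markers averaged 2.85 in abci20 and 3.11 in Col-0 in monosomal RNA. They averaged 2.86 and 2.66 in polysomal RNA, and 2.71 and 2.77 in total RNA. BAN, TT10 and TT12 lay near the low end, falling to percentiles of 4.0, 5.0 and 3.5 on their lowest arrays. So did LHCB1.1 and LHCB1.3, which fell to 0.57 and 1.2. The part of all these markers in the ABI4 and EEL differences was not tested.

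bZIP53 ran the other way, with lower signals in abci20 in all 3 fractions. This bZIP protein pairs with other bZIP proteins and raises the activity of storage albumin promoters. In total RNA it was at 7.94, 7.24 and 7.95 in abci20, against 8.51, 8.24 and 8.70 in Col-0. The groups did not overlap, and the difference of -0.77 (SE 0.212, 1.71-fold) just missed the threshold (adjusted p = 0.0539). With the replicate number as a block it passed (adjusted p = 0.0443).

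That bZIP53 difference in total RNA passed in 6 of 13 alternatives. Among them were the fits without abci20 total replicate 1 (-0.89, adjusted p = 0.0210) and without abci20 total replicate 3 (-0.89, adjusted p = 0.0479). So it was no smaller without the array that stood apart, in a fit where 9.49% of all probe sets passed. It missed with quantile normalization, array weights or the compared groups alone. Leaving out abci20 total replicate 2 or any Col-0 total array also kept it from passing. Centring the arrays moved the median of all probe sets in this contrast by -0.14 and gave -0.92 for bZIP53 (adjusted p = 0.0492).

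In polysomal RNA, bZIP53 was at 8.26, 8.10 and 8.51 in abci20, against 8.79, 8.63 and 8.84 in Col-0. The difference was -0.47 (SE 0.212, adjusted p = 0.591). With array weights it was -0.50 (adjusted p = 0.0257), in a fit where 9.55% of all probe sets passed. In monosomal RNA, bZIP53 was at 7.66, 7.82 and 7.67 in abci20, against 8.25, 8.21 and 8.14 in Col-0. There the difference was -0.48 (SE 0.212, adjusted p = 0.290). Neither pair of groups overlapped, and neither difference passed. The bZIP53 values were the same on every array as those of a second probe set, AT3G62422_at, so they may not belong to bZIP53 alone. Genes of its class carry a conserved upstream open reading frame in the message leader.

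The heads of the programme showed no genotype difference that passed. ABI3, which keeps seeds dormant and desiccation tolerant, differed by -0.48 in total RNA, -0.13 in polysomal and 0.18 in monosomal RNA (SE 0.326 each). Without abci20 total replicate 1 the total difference was -0.85 (adjusted p = 0.0890). Its 3 abci20 total arrays, at 8.79, 7.47 and 7.87, spanned the range of the Col-0 total arrays, at 8.75, 8.46 and 8.36. The first of these is the array that stood apart, and the other 2 lay below the Col-0 arrays. In abci20, the polysomal minus total difference was -0.52 with that array and -0.15 without it (adjusted p = 0.269 and 0.753), and the monosomal minus total difference was -0.27 and 0.10 (adjusted p = 0.611 and 0.838).

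FUS3, which restrains leaf traits in the embryo, differed by 0.61 in total RNA (SE 0.315, adjusted p = 0.336), by 0.04 in polysomal RNA and by -0.68 in monosomal RNA (adjusted p = 0.317). In total RNA its highest abci20 array, at 5.63, was the one that stood apart, and the other 2 abci20 arrays, at 4.49 and 4.52, lay within the Col-0 range of 3.83 to 4.56. Without it the difference was 0.24 (adjusted p = 0.660). LEC1 differed by -0.28, -0.10 and 0.25 in total, polysomal and monosomal RNA (SE 0.261), and LEC2, which can turn leaf cells embryonic, by -0.65, -0.44 and 0.64 (SE 0.347). The smallest adjusted p of these 6 values was 0.361. Without abci20 total replicate 1, LEC1 differed by -0.55 in total RNA (adjusted p = 0.179).

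ABI5, which holds back the growth of seedlings under abscisic acid and activates late embryogenesis genes, was lower in each fraction by less than the threshold allowed. It differed by -0.43 in total RNA, -0.46 in polysomal RNA and -0.17 in monosomal RNA (SE 0.225 each, adjusted p from 0.347 to 0.805). bZIP67, which acts with NF-Y subunits on storage genes, differed by -0.31, -0.52 and -0.13 in total, polysomal and monosomal RNA (SE 0.277). WRI1 differed by -0.11, 0.58 and 0.60 in those fractions (SE 0.306, adjusted p at least 0.383), and its abci20 and Col-0 polysomal arrays, at 3.71, 3.80 and 3.60 against 3.19, 3.40 and 2.78, did not overlap.

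The fraction comparisons asked which factors' messages were found more with polysomes or monosomes than in total RNA. They are relative to the other messages of the same fraction, and polysomal, monosomal and total values of a genotype are shared between contrasts, so the contrasts are not independent. In abci20, LEC1, LEC2 and bZIP67 were lower in polysomal than in monosomal RNA and ABI5 was lower in polysomal than in total RNA. In Col-0, bZIP67 was higher in monosomal than in total RNA and LEC2 was lower in polysomal than in total RNA.

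**Figure D3:**
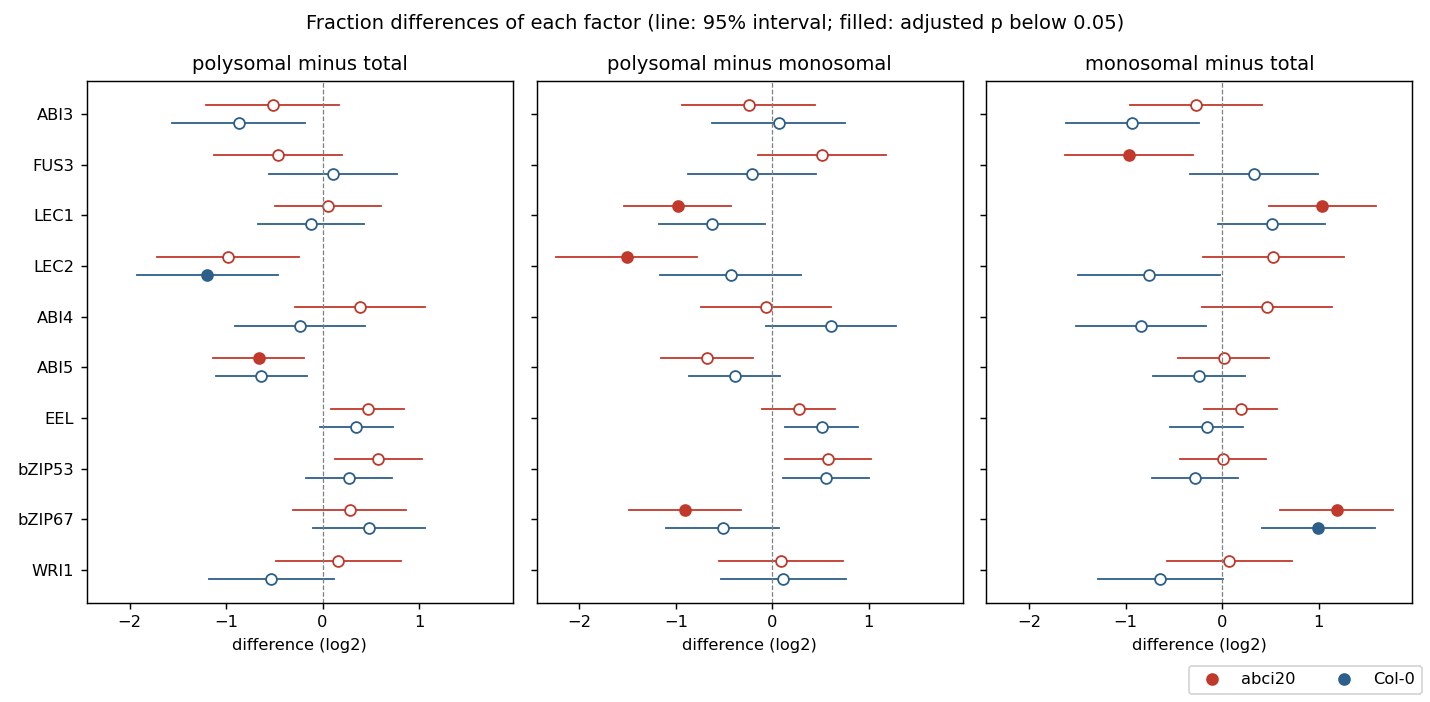
Differences between RNA fractions (x axis, log2) for each factor, with abci20 in red above Col-0 in blue. Lines are 95% intervals and filled points passed the threshold, among them bZIP67 in monosomal minus total RNA at 1.19 in abci20 and 1.0 in Col-0.

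In polysomal minus total RNA, 1 of 10 factors passed in abci20 (ABI5), where 22.1% of all probe sets did, and 1 of 10 in Col-0 (LEC2), where 7.13% did. In polysomal minus monosomal RNA, 3 of 10 passed in abci20 (LEC1, LEC2 and bZIP67), against 10.8% of all, and 0 of 10 in Col-0, against 12.5%. In Col-0, 3 of 10 had an unadjusted p below 0.05 in this contrast, as did 29.4% of all probe sets. In monosomal minus total RNA, 3 of 10 passed in abci20 (FUS3, LEC1 and bZIP67), against 14.7%, and 1 of 10 in Col-0 (bZIP67), against 6.65%. Centring moved the median of all probe sets by 0.32 and 0.21 in polysomal minus total RNA of abci20 and Col-0, and by 0.30 and 0.14 in monosomal minus total RNA, so fraction differences of that size depend on the scaling.

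bZIP67 had the fraction difference found in both genotypes. In abci20 it was at 3.50, 2.79 and 3.21 in monosomal RNA, against 2.15, 1.93 and 1.87 in total RNA. In Col-0 it was at 3.11, 3.86 and 2.91 in monosomal RNA, against 2.22, 2.23 and 2.44 in total RNA. In both genotypes every monosomal array lay above every total array.

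The abci20 difference for bZIP67 was 1.19 (SE 0.277, adjusted p = 0.00943) and missed only with the compared groups fitted alone (adjusted p = 0.0721), out of 12 alternatives. The Col-0 difference was 1.0 (SE 0.277, adjusted p = 0.0406), and it passed in 3 of 13. It missed with the replicate block (adjusted p = 0.0547) and without any of 5 of the 6 Col-0 arrays compared, all but monosomal replicate 3 (adjusted p from 0.0636 to 0.139, lowest difference 0.71 without monosomal replicate 2). After quantile normalization it missed narrowly (1.02, adjusted p = 0.0521). The difference between the genotypes was 0.19 (SE 0.392, adjusted p = 0.927).

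bZIP67 was also lower in polysomal than in monosomal RNA of abci20, with 2.28, 1.81 and 2.70 in polysomal RNA. The difference of -0.91 (SE 0.277, adjusted p = 0.0449) passed in 4 of 13 alternatives and missed with the block (adjusted p = 0.0613). Leaving out monosomal replicate 1 or 3 or polysomal replicate 1 or 2 ended the call (adjusted p from 0.108 to 0.190). So did quantile normalization (-0.74, adjusted p = 0.162) and centring (-0.88, adjusted p = 0.0765). In Col-0 its polysomal values were 2.47, 3.05 and 2.80 and the difference was -0.52 (adjusted p = 0.226).

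LEC1 had the same shape. In abci20 it was at 1.68, 2.35 and 1.95 in polysomal RNA, 2.80, 2.76 and 3.37 in monosomal RNA and 2.49, 1.56 and 1.76 in total RNA. Every monosomal array lay above the others. It was 1.04 higher in monosomal than in total RNA (SE 0.261, adjusted p = 0.0141, passing in 8 of 12 alternatives) and lower in polysomal than in monosomal RNA (-0.98, adjusted p = 0.0223, passing in 8 of 13).

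Single arrays bore on both LEC1 calls. The monosomal minus total call was lost without monosomal replicate 3 (0.84, adjusted p = 0.0676), total replicate 2 (0.85, adjusted p = 0.0735) or total replicate 3 (0.95, adjusted p = 0.0571). The polysomal minus monosomal call was lost without monosomal replicate 3 (-0.78, adjusted p = 0.103), polysomal replicate 1 (-0.82, adjusted p = 0.119) or polysomal replicate 3 (-0.96, adjusted p = 0.0715). It was also lost after quantile normalization (-0.80, adjusted p = 0.0819) or centring (-0.96, adjusted p = 0.0522). In Col-0 the differences were 0.51 and -0.63 and missed (adjusted p = 0.252 and 0.120), with polysomal arrays at 2.34, 2.13 and 1.81, monosomal arrays at 2.66, 2.75 and 2.76 and total arrays at 2.08, 2.10 and 2.46.

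LEC2, too, had a call in each genotype, in different contrasts. In abci20 it was at 1.58, 1.67 and 1.31 in polysomal RNA, against 2.18, 3.61 and 3.31 in monosomal RNA. That difference of -1.51 (SE 0.347, 2.85-fold, adjusted p = 0.00953) passed in 12 of 13 alternatives and missed without abci20 monosomal replicate 2 (-1.22, adjusted p = 0.0518). In Col-0 it was at 1.77, 1.85 and 2.25 in polysomal RNA, against 3.22, 3.61 and 2.62 in total RNA.

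The Col-0 polysomal minus total difference of LEC2 was -1.19 (SE 0.347, 2.29-fold, adjusted p = 0.0469). It passed in 5 of 13 alternatives and missed with the replicate block (adjusted p = 0.0592). Leaving out any polysomal array or total replicate 1 or 2 ended the call (adjusted p from 0.0854 to 0.174). Quantile normalization (-0.87, adjusted p = 0.220) and centring (-0.98, adjusted p = 0.0742) ended it too. In abci20 the same contrast, against total arrays at 2.64, 2.14 and 2.72, gave -0.98 (adjusted p = 0.0515), and the genotypes differed by 0.21 (SE 0.491, adjusted p = 0.999).

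FUS3 was the one factor with a call for less monosomal than total RNA. In abci20 it was at 3.49, 4.49 and 3.75 in monosomal RNA, against 5.63, 4.49 and 4.52 in total RNA. The groups met at 4.49. The difference of -0.97 (SE 0.315, adjusted p = 0.0476) was -0.60 without abci20 total replicate 1 (adjusted p = 0.137), the array that stood apart. It also missed without monosomal replicate 1 (adjusted p = 0.169), monosomal replicate 3 (0.126) or total replicate 3 (0.0515), and with the block (0.0557). Quantile normalization (-0.85, adjusted p = 0.0802) and centring (-0.67, adjusted p = 0.171) ended the call as well.

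ABI5 was lower in polysomal than in total RNA by a similar amount in both genotypes. In abci20 it was at 9.49, 9.74 and 9.04 in polysomal RNA, against 10.28, 9.72 and 10.27 in total RNA, a difference of -0.66 (SE 0.225, adjusted p = 0.0437). In Col-0 it was at 9.74, 10.23 and 9.68 in polysomal RNA, against 10.52, 10.66 and 10.38 in total RNA, a difference of -0.63 (SE 0.225, adjusted p = 0.0922). The groups overlapped in abci20 and did not in Col-0, although the call fell in abci20. The genotypes differed by -0.03 (SE 0.318, adjusted p = 0.999).

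The abci20 call of ABI5 passed in 6 of 13 alternatives. It missed without polysomal replicate 1 (-0.70, adjusted p = 0.0911), polysomal replicate 3 (-0.47, adjusted p = 0.188), total replicate 1 (-0.57, adjusted p = 0.0852) or total replicate 3 (-0.57, adjusted p = 0.137). Centring brought the difference to -0.34 (adjusted p = 0.316), and quantile normalization to -0.62 (adjusted p = 0.113). ABI3 in Col-0 differed by -0.87 in polysomal minus total RNA (adjusted p = 0.110) and by -0.93 in monosomal minus total RNA (adjusted p = 0.0942). Both missed, and both passed without abci20 total replicate 1, which is not in these contrasts but enters the shared spread (adjusted p = 0.0462 and 0.0368).

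EEL and bZIP53 had their highest means in polysomal RNA in both genotypes. EEL averaged 7.27 ± 0.108 in polysomal RNA of abci20, with 7.00 ± 0.148 in monosomal and 6.81 ± 0.238 in total RNA, and 6.74 ± 0.0874 in polysomal RNA of Col-0, with 6.23 ± 0.144 and 6.39 ± 0.0725 (SD, n = 3 each). bZIP53 averaged 8.29 ± 0.206 in polysomal RNA of abci20, with 7.71 ± 0.0873 and 7.71 ± 0.409 in monosomal and total RNA, and 8.76 ± 0.110 in polysomal RNA of Col-0, with 8.20 ± 0.0585 and 8.48 ± 0.234. None of the contrasts of these 2 factors between fractions passed, the nearest being bZIP53 in polysomal minus total RNA of abci20 at 0.58 (adjusted p = 0.0583; 0.0481 with the block, and 0.70 and 0.0260 without abci20 total replicate 1). Without that array EEL passed as well, in polysomal minus total RNA of abci20 at 0.60 (adjusted p = 0.0172), beside 0.47 with it (0.0706), and in polysomal minus monosomal RNA of Col-0 at 0.51 (0.0390), beside 0.51 with it (0.0709). The abci20 value also passed with centring or array weights.

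Whether a fraction contrast differed between the genotypes was tested as an interaction. By limma, 0 of 10 factors and 0 of 27827 probe sets (0%) passed in each of the 3 contrasts. At an unadjusted p below 0.05 there were 0, 1 and 3 factors, and 1263, 744 and 2270 probe sets, in polysomal minus total, polysomal minus monosomal and monosomal minus total RNA. The 3 factors were FUS3 (-1.3, SE 0.445, adjusted p = 0.494; -0.92 without abci20 total replicate 1), ABI4 (above) and LEC2 (1.29, SE 0.491, adjusted p = 0.538), and the 1 factor was LEC2 (-1.08, SE 0.491). The calls made in 1 genotype and not in the other were therefore not shown to differ between them.

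Among genes for proteins that act on ABI3 and ABI5 after translation, AFP2 and AFP3 were lower in abci20. The list holds the ABI5-binding proteins AFP1 to AFP4, the ubiquitin ligase parts KEG, DWA1 and DWA2 for ABI5 and AIP2 for ABI3, and the SUMO ligase SIZ1. All 9 differences were below 0 in total, polysomal and monosomal RNA, also after quantile normalization or centring, with medians of -0.69, -0.21 and -0.70 beside 0.01, -0.01 and -0.03 over all probe sets. The list was chosen with earlier results of these data known, so this shared direction is not independent evidence. Of the 9, 2 passed in total RNA (AFP2 and AFP3), 0 in polysomal RNA and 1 in monosomal RNA (AFP3), where 3.35%, 0.442% and 1.83% of all probe sets did. In polysomal RNA, 4 of the 9 had an unadjusted p below 0.05, beside 7.95% of all probe sets.

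**Figure D4:**
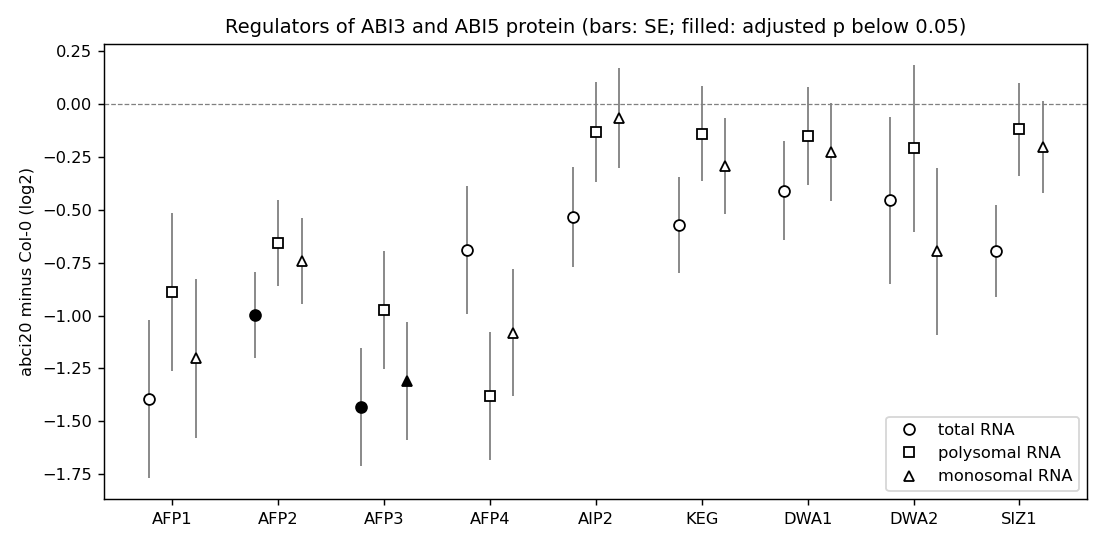
Difference between abci20 and Col-0 (y axis, log2) for 9 regulators of ABI3 and ABI5 protein in total, polysomal and monosomal RNA. Bars are the SE and filled points passed the threshold. All 27 points lie below 0, for a list chosen with earlier results of these data known.

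AFP3 was at 6.17, 5.61 and 6.39 in abci20 total RNA, against 7.64, 7.20 and 7.63 in Col-0, and at 6.79, 6.31 and 7.04 in abci20 monosomal RNA, against 7.93, 7.87 and 8.26 in Col-0. No abci20 array reached the Col-0 range in either fraction. The total difference was -1.43 (SE 0.278, adjusted p = 0.00969) and missed only with the compared groups fitted alone (adjusted p = 0.234). The monosomal difference was -1.31 (SE 0.278, adjusted p = 0.0230) and missed without monosomal replicates 1 or 2 of abci20 or 1 or 3 of Col-0 (adjusted p from 0.0653 to 0.130), and with those groups fitted alone (0.105).

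AFP2 was at 7.23, 6.76 and 6.72 in abci20 total RNA, against 8.01, 7.80 and 7.88 in Col-0. The difference of -1.0 (SE 0.203, adjusted p = 0.0128) missed without Col-0 total replicate 1 (-0.94, adjusted p = 0.0533) and with the compared groups fitted alone (adjusted p = 0.301). AFP1 in total RNA (-1.39, adjusted p = 0.0502) and AFP4 in polysomal RNA (-1.38, adjusted p = 0.0538) lay just outside. AFP1 passed with the block (adjusted p = 0.0461) and without abci20 total replicate 1 (-1.78, adjusted p = 0.00723) or Col-0 total replicate 2 (-1.84, adjusted p = 0.0139), and AFP4 without abci20 total replicate 1 (adjusted p = 0.0264). AFP3 in polysomal RNA, at -0.97, passed with the block (adjusted p = 0.0363) but not without it (0.186).

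Genes on which the bZIP and B3 factors act, 17 storage and desiccation genes, did not pass in any genotype comparison. Their differences ran from -0.62 to 0.01 in total RNA, from -0.43 to 0.12 in polysomal RNA and from -0.50 to 0.36 in monosomal RNA, with medians of -0.20, -0.16 and -0.09. The largest by p in total RNA was the cruciferin gene CRB (-0.49, adjusted p = 0.194). At an unadjusted p below 0.05 there were 2, 0 and 0, beside 17.5%, 7.95% and 14.9% of all probe sets. Between fractions, 4 of 17 were lower in polysomal than in monosomal RNA in each genotype, where 3.45% of all probe sets were in abci20 and 4.25% in Col-0. They were the albumin genes SESA2 (-1.16 in abci20, -0.91 in Col-0), SESA3 (-0.74 and -0.69) and SESA5 (-0.56 and -0.53) and the late embryogenesis gene M10 (-0.75 and -0.55). Their largest adjusted p was 0.0491. The SESA5 call in each genotype and the M10 call in Col-0 were lost when any 1 of the compared arrays was left out (adjusted p from 0.0563 to 0.167), after quantile normalization and after centring. The block also ended both Col-0 calls (adjusted p = 0.0537 for SESA5 and 0.0521 for M10). The SESA3 call was lost in abci20 when any compared array except polysomal replicate 3 was left out (adjusted p from 0.0522 to 0.114), in Col-0 when any except monosomal replicate 3 was left out (0.0533 to 0.134), and in both after quantile normalization or centring. The SESA2 call in Col-0 was lost without monosomal replicate 1 or 2 or polysomal replicate 3 (0.0800 to 0.151) and with centring (0.0528). No left-out array ended the SESA2 or M10 call in abci20, and quantile normalization ended that of M10 (0.0589).

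The genes that WRI1 acts on in glycolysis and fatty acid synthesis were 16. Of these, 1 was higher in abci20, in monosomal RNA, where 1.83% of all probe sets passed: PDH-E1 ALPHA, a plastid pyruvate dehydrogenase subunit, at 6.33, 6.80 and 6.61 in abci20, against 5.63, 5.79 and 4.46 in Col-0. The groups did not overlap, although 1 Col-0 array lay over 1 unit below the other 2. The difference of 1.28 (SE 0.285, adjusted p = 0.0290) was 0.87 without that array, Col-0 monosomal replicate 3 (adjusted p = 0.0907), and also missed without Col-0 replicate 1 or any abci20 monosomal array (adjusted p from 0.0513 to 0.133), and with those groups fitted alone (0.197). None passed in total or polysomal RNA, where 5 and 3 had an unadjusted p below 0.05, beside 17.5% and 7.95% of all probe sets. The medians of the 16 were 0.41, 0.25 and 0.25 in total, polysomal and monosomal RNA.

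Of 18 partners and relatives of the factors, 0 passed between the genotypes. In total, polysomal and monosomal RNA, 4, 2 and 3 had an unadjusted p below 0.05, beside 17.5%, 7.95% and 14.9% of all probe sets. The nearest was MYB96, an abscisic acid response factor, in monosomal RNA (1.15, SE 0.298, adjusted p = 0.0583). It passed without abci20 monosomal replicate 1 (adjusted p = 0.0423), Col-0 monosomal replicate 2 (0.0465) or abci20 total replicate 1 (0.0431). ABF1, a bZIP relative of ABI5, was above 0 in each fraction, at 0.96 in total, 0.96 in polysomal and 1.14 in monosomal RNA (adjusted p at least 0.138).

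The 4 relatives of bZIP53 with the same kind of upstream reading frame, bZIP1, bZIP2, bZIP11 and bZIP44, did not pass between the genotypes either. In each fraction 1 of the 4 had an unadjusted p below 0.05. Of all probe sets, 17.5%, 7.95% and 14.9% did in total, polysomal and monosomal RNA. bZIP1 was nearest, at -0.98, -1.07 and -1.04 in total, polysomal and monosomal RNA (adjusted p from 0.243 to 0.473), and passed in total RNA without abci20 total replicate 1 (-1.56, adjusted p = 0.0150). Each of the 4 shares its values with a second probe set, as bZIP53 does.

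The 16 chromatin and transcriptional repressors of the programme did not pass between the genotypes. In total, polysomal and monosomal RNA, 4, 3 and 3 had an unadjusted p below 0.05, beside 17.5%, 7.95% and 14.9% of all probe sets. Nearest to the threshold was BMI1A, a Polycomb ring finger protein, in monosomal RNA (1.12, adjusted p = 0.0557, passing without abci20 total replicate 1 at 0.0133). Several were higher in polysomal than in monosomal RNA: 5 of 16 in abci20 and 4 of 16 in Col-0, beside 7.31% and 8.2% of all probe sets. Single arrays and other alternatives ended some of these calls. In abci20, VAL2, a close relative of VAL1, lost its call when any compared array except monosomal replicate 1 was left out (adjusted p from 0.0513 to 0.0741), PKL, a chromatin remodeller, when any except polysomal replicate 3 was left out (0.0525 to 0.178), and EMF2, a Polycomb subunit, without monosomal replicate 1 or polysomal replicate 2 or 3 (0.0726 to 0.0841). In Col-0, PKL was lost without monosomal replicate 1 or polysomal replicate 2 (0.0954 and 0.0914). Over all 14 alternatives, VAL2, PKL and EMF2 passed in 8, 7 and 10 in abci20 (adjusted p up to 0.155, 0.178 and 0.141). PKL passed in 11 and EMF2 in 13 in Col-0 (up to 0.0954 and 0.0829). VAL1, a B3 protein that represses the LEC genes, was higher by 1.31 in abci20 (SE 0.249, adjusted p = 0.00272) and by 1.58 in Col-0 (adjusted p = 0.000698), in all 14 alternatives of each. FIE, a Polycomb subunit, was higher by 1.3 in abci20 and 1.33 in Col-0 (adjusted p = 0.00504 and 0.00413), and the abci20 call was lost after quantile normalization (0.93, adjusted p = 0.0548).

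The ABI5 ligase gene KEG and SIZ1 were higher in polysomal than in monosomal RNA as well. KEG was higher by 1.52 in abci20 and 1.37 in Col-0 (SE 0.225, adjusted p = 0.000413 and 0.000947), and SIZ1 by 1.20 and 1.12 (SE 0.218, adjusted p = 0.00189 and 0.00303). Both passed in all 14 alternatives in each genotype. ABI5 and bZIP67 stood on the other side of this contrast, with -0.68 (adjusted p = 0.0640; 0.0484 without abci20 total replicate 1) and -0.91 in abci20, and -0.39 and -0.52 in Col-0.

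For the factors with at least 1 call, the probe sets with the closest course over the 18 arrays were looked up. ABI4 was nearest to AT3G47800 and AT1G78310 (r = 0.93 each) and CRF4 (0.92), EEL to GRF3 (0.94), and ABI5 to AT4G36600 (0.92). LEC1 was nearest to AT5G45960 (0.94), LEC2 to ATCSLB05 (0.89), bZIP67 to AT4G08555 (0.91) and FUS3 to VAL3 (0.81). These are the highest of 27827 correlations over arrays that share groups, and they carry no test.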

How the data were processed

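Total, polysomal and monosomal RNA of dry abci20 and Col-0 seeds was measured on 18 arrays. The deposited values are log2 signals that the authors made with RMA, per the submitters' processing notes. The RMA version, array type, probe set definition and genome build are not given in the sources used here. Scan-level data were not used. Precision is limited by the number of arrays.

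Samples were grouped by genotype and fraction as labelled, and 1 model per probe set, with a coefficient for each group, was fitted to all 18 arrays (limma 3.58.1 with lmFit and eBayes, statmod 1.5.0, R 4.3.3), which left 12 residual degrees of freedom. The 12 comparisons were two-sided, with a threshold of 0.05 after Benjamini-Hochberg adjustment over the 27827 probe sets. The fit was tested on simulated data. RefSeq's TAIR10.1 gene table named 27241 probe sets and left 586 under their locus. Figures used matplotlib 3.10.9 in Python 3.11.15. Sequences of the factors are not used here.

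Members and 6 gene lists were chosen with earlier results of these data known, so their directions are not independent evidence. Of 82 list genes, 80 were used, and 2 were left out because the table gives their locus another name. Named were the 10 factors, the 3 list genes with the smallest p in each genotype comparison, ABCI20, and the 3 closest probe sets of each factor with a call, of which only some are printed. List genes named for fraction contrasts and DWA1, DWA2 and AIP2 were added after their values were seen.

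The replicate number was taken as a block of the stated planting layout, although the sample labels give only the number. Residuals of same-numbered arrays correlated at -0.17 to 0.24, above 0.1 in 9 of 45 pairs. Blocked values stand beside results whose call they change. The alternatives were this block, quantile normalization, centring of each array on its median, only brighter probe sets, array weights, robust estimation with a variance trend, only the compared groups, and leaving out each compared array, or abci20 total replicate 1, in turn.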

Additional observations from a re-analysis of the deposited data

How the results depend on the processing

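Of 1762 recomputed values of the factors, 1652 kept their direction and their side of the threshold, or had no call in either fit, 65 lost a call, 45 gained one and 0 reversed. The counts of factors past the threshold were small and moved. In total RNA, the genotype count of 0 became 1 with the replicate block, centring, only brighter probe sets or the variance trend. In those fits 3.49%, 3.92%, 12.2% and 5.46% of all fitted probe sets passed. The count ran from 0 to 1 when an array was left out. In polysomal RNA the genotype count became 3 with array weights, where 9.55% of all probe sets passed. In monosomal RNA the 2 became 1 with centring (1.14% of all probe sets) and 0 with only the compared groups (0.0898%). The count was 0 or 1 when a compared array was left out, and 2 without abci20 total replicate 1, which is not in this contrast. In abci20, polysomal minus total RNA had 1. It had 2 under the replicate block, centring or the variance trend (22%, 30.9% and 24.2% of all probe sets). Brighter probe sets gave 3 (37.8% of those fitted) and array weights 5 (40%). Quantile normalization and the compared groups gave 0 (9.25% and 5.71%). Leaving out an array gave 0 to 3, the 3 without abci20 total replicate 1 (32.9%). Polysomal minus monosomal RNA had 3, with 1 under quantile normalization or centring (7.45% and 8.7%) and 5 with array weights (25.3%). The count was 1 to 3 when a compared array was left out, and 4 without abci20 total replicate 1 (14.4%). Monosomal minus total RNA had 3, with 1 for brighter probe sets (29.3%) and 0 for the compared groups (1.88%). It had 1 to 3 when an array was left out. In Col-0, polysomal minus total RNA had 1, with 0 under the replicate block, quantile normalization or centring (7.08%, 1.86% and 11.5%). The variance trend gave 2 (8.91%) and array weights 3 (17.6%). The count was 0 or 1 when a compared array was left out, and 2 without abci20 total replicate 1 (13.1%). Polysomal minus monosomal RNA had 0, with 2 for brighter probe sets or array weights (27.2% and 19.8%) and 1 for the variance trend (14.1%). It stayed 0 when any compared array was left out, and was 1 without abci20 total replicate 1 (17.2%). Monosomal minus total RNA had 1, with 0 under the block, quantile normalization, brighter probe sets, array weights or the compared groups. In those fits 6.95%, 6.55%, 16.4%, 6.77% and 2.29% of all fitted probe sets passed. The count was 0 or 1 when a compared array was left out, and 3 without abci20 total replicate 1 (11.4%). The cause was not tested.

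Counts over all probe sets moved too. Between genotypes they were 932, 123 and 510 in total, polysomal and monosomal RNA, and over all alternatives ran from 0 to 2640, 27 to 2657 and 25 to 1087. In abci20 they were 6149, 2994 and 4098 in polysomal minus total, polysomal minus monosomal and monosomal minus total RNA, and ran from 1590 to 11135, 1475 to 7029 and 523 to 7651. In Col-0 they were 1985, 3467 and 1850, and ran from 426 to 4899, 1730 to 5496 and 637 to 3185. The interactions, at 0, ran up to 28, 2 and 208. The share of calls that were higher was 33.3% between genotypes in total RNA (15.5% centred) and 52.8% in polysomal RNA (40.3% centred). In abci20 it was 53.7% in polysomal minus total RNA (79.4% centred), 67.9% in polysomal minus monosomal RNA (56% after quantile normalization) and 55.3% in monosomal minus total RNA (82.3% centred). In Col-0 it was 57% (45.6% after quantile normalization, 79% centred), 65.8% (78.5% centred) and 48.1% (66.1% centred). LEC1, LEC2, bZIP67 and WRI1 were left out of the fit of brighter probe sets.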
